A study of Mus musculus with 4 samples.

Results

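Open chromatin was examined at 10 genes of the osteoclast program, Tnfrsf11a, Nfatc1, Ctsk, Acp5, Dcstamp, Ocstamp, Mmp9, Oscar, Itgb3 and Calcr, in the mouse macrophage line RAW264.7. They are 10 of the 21440 protein-coding genes whose strand was known and were listed by name, although earlier results of these data were known when the list was made. For each gene every ATAC-seq peak was read from 20 kb before the 5′ end to the 3′ end, a window that held 578.174 kb over the 10 genes. ATAC-seq uses the Tn5 transposase to insert sequencing adapters into accessible DNA, and a peak is a stretch where the inserted ends pile up above the local background. All cells were wild type (WT) and were exposed for 24 h to 25 ug/mL DIL-oxLDL, a dye-labelled form of oxidized LDL. The control group received DMSO, the solvent, and the esculetin group received 40 ug/mL esculetin, a plant coumarin, with 2 libraries in each group. RAW264.7 is a single transformed line, and nothing in the descriptions says that the libraries came from separate cultures, so p-values measure only the spread between these libraries. No osteoclast-inducing ligand is named among the treatments.

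Osteoclasts are the bone-resorbing cells of the monocyte lineage. They form when RANK ligand binds its receptor RANK, encoded by Tnfrsf11a, on precursors kept alive by the growth factor CSF1, and the signal runs through TRAF6, NF-kB and AP-1 to NFATc1, the factor that switches on the later genes of the program. Those genes encode the fusion proteins, the acid phosphatase and proteases that digest bone, and the integrin and receptors of the mature cell. RAW264.7 cells are a common precursor model because they turn into osteoclast-like cells when given RANK ligand.

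The 4 peak lists differed in length. There were 19595 peaks in control 1, 27833 in control 2, 8677 in esculetin 1 and 12792 in esculetin 2. The genome-wide background coverage was 6.51, 4.08, 4.97 and 4.10 in the same order. It is proportional to read depth only if the peak caller used the same settings for each library, and its options are not given. Control 2 had the longest list and the lowest background coverage. Of 12 macrophage markers, 5, 7, 1 and 4 had a promoter peak, and 10, 11, 5 and 10 had a peak in a window drawn by the same rule. Spi1, which encodes the lineage factor PU.1, was the only one with a promoter peak in all 4 libraries, and Adgre1, Itgam, Csf1r, Mpeg1 and Cd84 had none in any. No marker of T and B cells (9 genes), epithelium (10), fibroblasts and osteoblasts (8) or endothelium (4) had a promoter peak in any library. Window peaks were found at 5, 2, 0 and 0 epithelial markers, among them Krt8, Krt18, Cldn4 and Pax2 in control 1 and Cldn4 and Pax8 in control 2. Fibroblast and osteoblast markers had window peaks at 2, 6, 1 and 1 genes, and Col1a1, Col1a2, Pdgfra and Sp7 were called in control 2 alone, while Alpl was called in both controls and Runx2 in all 4 libraries. Endothelial markers had them at 2, 3, 1 and 1 genes (Cdh5, Kdr, Tek and Pecam1), and T and B cell markers at 4, 5, 4 and 5 genes (among them Cd3g, Cd4, Lck, Cd79a, Ms4a1 and Pax5). List length was not tested as a cause, but counts with equal numbers of the strongest peaks are given below. The part of these other windows in the results was not tested.

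The promoters of the program differed widely in CpG content. RefSeq promoter sequences of build GRCm38.p6, the build of the peak files (mm10), covered 8 annotated starts of 5 of the genes, each from 250 bp before to 50 bp after the start. The other 5 genes, Nfatc1, Dcstamp, Ocstamp, Mmp9 and Itgb3, had no entry. Tnfrsf11a and 1 of the starts of Calcr are shown because they were the CpG-rich promoters of the set, with 43 and 29 CpG dinucleotides, and only the former was called in a library. The letters CG are in capitals. Tnfrsf11a lies at chr1:105780473-105780772 on the plus strand, and Calcr at chr6:3763574-3763873 on the minus strand, both written 5′ to 3′.
Tnfrsf11a: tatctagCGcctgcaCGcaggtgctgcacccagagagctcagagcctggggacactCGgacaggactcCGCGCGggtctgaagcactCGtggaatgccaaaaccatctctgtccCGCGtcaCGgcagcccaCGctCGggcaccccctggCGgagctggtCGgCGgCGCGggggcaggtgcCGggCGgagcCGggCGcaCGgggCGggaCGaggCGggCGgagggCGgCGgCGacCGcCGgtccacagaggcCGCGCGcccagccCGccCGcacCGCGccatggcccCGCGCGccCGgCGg
Calcr: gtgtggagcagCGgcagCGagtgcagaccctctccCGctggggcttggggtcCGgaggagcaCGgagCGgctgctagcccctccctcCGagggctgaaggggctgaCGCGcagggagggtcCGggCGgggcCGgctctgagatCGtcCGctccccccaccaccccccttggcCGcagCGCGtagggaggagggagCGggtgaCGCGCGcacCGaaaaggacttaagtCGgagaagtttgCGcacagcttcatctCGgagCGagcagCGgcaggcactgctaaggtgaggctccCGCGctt

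Ctsk and Oscar are shown because they were the most CpG-poor starts, with 2 CpG each, and carried the largest numbers of matches to the motifs searched, 3 and 5. Capitals mark the matches on either strand to PU.1 (GAGGAA), NFAT (TGGAAA) and the CATGTG form of the E-box, which binds factors of the MITF and TFE family. Ctsk lies at chr3:95498960-95499259 on the plus strand and Oscar at chr7:3616108-3616407 on the minus strand.
Ctsk: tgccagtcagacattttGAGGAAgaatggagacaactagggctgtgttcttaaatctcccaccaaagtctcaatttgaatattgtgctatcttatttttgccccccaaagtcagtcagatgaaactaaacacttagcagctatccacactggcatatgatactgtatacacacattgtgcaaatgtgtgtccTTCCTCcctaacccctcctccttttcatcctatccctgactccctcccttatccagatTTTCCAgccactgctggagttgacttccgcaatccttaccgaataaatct
Oscar: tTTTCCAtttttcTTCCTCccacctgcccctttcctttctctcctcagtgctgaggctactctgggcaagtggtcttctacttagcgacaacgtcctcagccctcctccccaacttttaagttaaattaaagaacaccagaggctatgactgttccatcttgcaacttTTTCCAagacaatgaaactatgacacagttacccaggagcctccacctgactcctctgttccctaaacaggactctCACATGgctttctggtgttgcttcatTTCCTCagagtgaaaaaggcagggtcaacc

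At Ctsk the PU.1 letters began 233 and 58 bp before the start and the NFAT letters at the start itself. At Oscar both motifs occurred at 2 places and the E-box at 1 place, 6 bp before the start. A start of Acp5 (chr9:22130549-22130848, minus strand) held 1 NFAT and 1 CATGTG match. Such matches are frequent: PU.1 letters were present in 28.3%, NFAT letters in 21.4% and CATGTG in 14.2% of all 32851 promoters in the table. The 8 starts held no match to AP-1 (TGANTCA, in 7.81% of all promoters), CACGTG (7.15%), C/EBP (TTGCNNCAA, 2.08%), the NF-kB motif (0.411%), RUNX (TGTGGT, 16.8%) or the TATA box (TATAAA, 13.6%).

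Promoters of the osteoclast genes were almost entirely without peaks. A promoter peak, meaning a summit within 1 kb of an annotated start, was found at 0 of 10 genes in control 1, 1 in control 2, 0 in esculetin 1 and 0 in esculetin 2. Over all coding genes the shares were 40.7%, 42.1%, 30.1% and 37.9%. Thus 9 of the 10 genes had no promoter peak in any library, against 52.8% of coding genes, and the difference between groups at the promoter rested on 1 peak of control 2. That peak was at Tnfrsf11a, and a call in control 2 alone was seen at 2.55% of coding genes. For Nfatc1, Dcstamp, Ocstamp, Mmp9 and Itgb3 the only start used was the 5′ end of the gene. Peaks at any other start of these genes would not be counted as promoter peaks. With the distance widened to 2 kb the counts became 2, 3, 1 and 2 genes, beside 42.3%, 44.4%, 31% and 39.1% of coding genes, through peaks before Nfatc1, Oscar and Ocstamp that are described with those genes.

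Across the genome the share of promoters called was higher at higher CpG content, and 4 of the 8 osteoclast starts with a sequence lay in the lowest class. The part of CpG content in the promoter calls of the osteoclast genes was not tested, and 5 of the 10 genes had no sequence. Of the 5798 coding promoters with an observed over expected CpG ratio below 0.25, 92.5% were called in no library, and of the 7154 promoters at 0.75 or above, 19.3% were. Ctsk at 0.155, Oscar at 0.132, 1 start of Calcr at 0.240 and 1 of Acp5 at 0.242 lay in the lowest class. The other starts of Acp5 were at 0.317 and 0.554, in classes where 77.6% and 39.0% of promoters had no peak. Tnfrsf11a at 0.976 and the CpG-rich start of Calcr at 0.798 lay in the highest class, where 71.7%, 73.7%, 59.1% and 70.3% of promoters were called in control 1, control 2, esculetin 1 and esculetin 2. Calcr was called in none of them, and Tnfrsf11a in control 2 alone, as were 2.89% of promoters of this class.

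**Figure D1:**
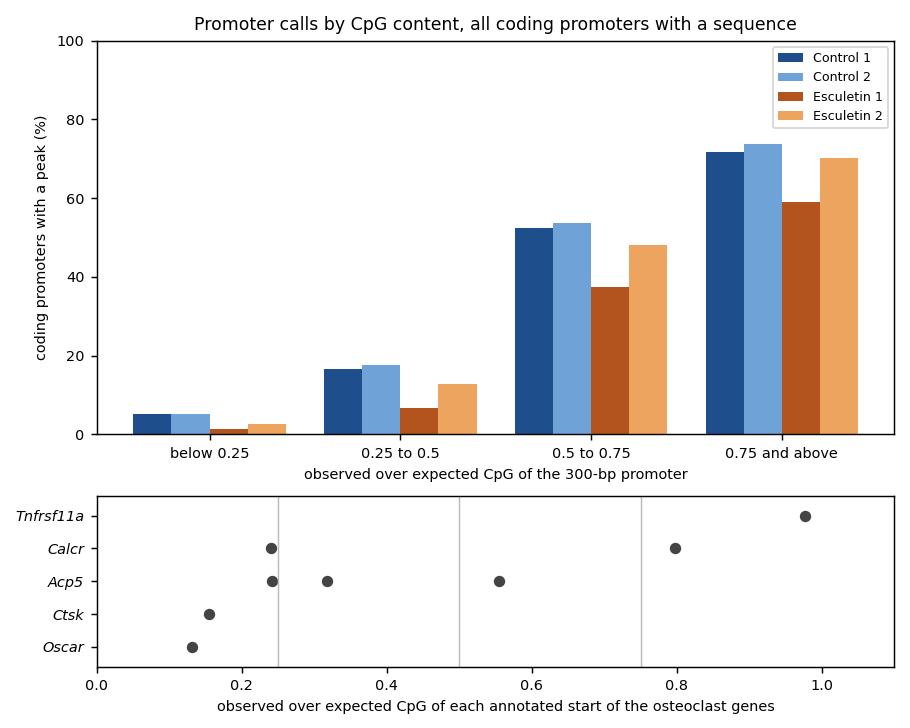
Top: share of coding promoters with a peak (%) in each library by observed over expected CpG ratio of the 300-bp promoter. Bottom: the CpG ratio of each of the 8 annotated starts with a sequence, with 4 of them in the lowest class, where 92.5% of all coding promoters had no peak, and only Tnfrsf11a and 1 start of Calcr in the highest.

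Peaks elsewhere in the windows were more frequent. With the whole lists they were fewer in the esculetin libraries, but with equal numbers of the strongest peaks the 10 windows held 5, 2, 5 and 3 and the difference between group means was 0.5 in the opposite direction. The 10 windows held 14 peaks in control 1, 18 in control 2, 5 in esculetin 1 and 8 in esculetin 2, or 16 ± 2.83 against 6.5 ± 2.12 (mean ± SD, n = 2 per group), and the groups did not overlap. Per 100 kb of window this was 2.42, 3.11, 0.865 and 1.38 peaks, beside 1.49, 2.16, 0.757 and 1.05 over the windows of all coding genes. The control mean was 2.46 times the esculetin mean at the osteoclast genes and 2.02 times over all coding genes. Without control 2 the difference between the group means was −7.5 peaks, and without control 1 it was −11.5. At least 1 window peak was found at 6, 7, 3 and 4 of the 10 genes, against 57%, 62.3%, 41% and 51% of coding genes. The number of peaks in both controls exceeded that in both esculetin libraries at 3 genes, Tnfrsf11a, Dcstamp and Oscar, and the reverse was seen at 0 genes, whereas 19.1% and 0.438% of coding genes showed these patterns. With 2 libraries against 2 the smallest p an exact permutation test can give is 0.333, which these 3 genes reached, so no single gene could pass a threshold of 0.05.

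**Figure D2:**
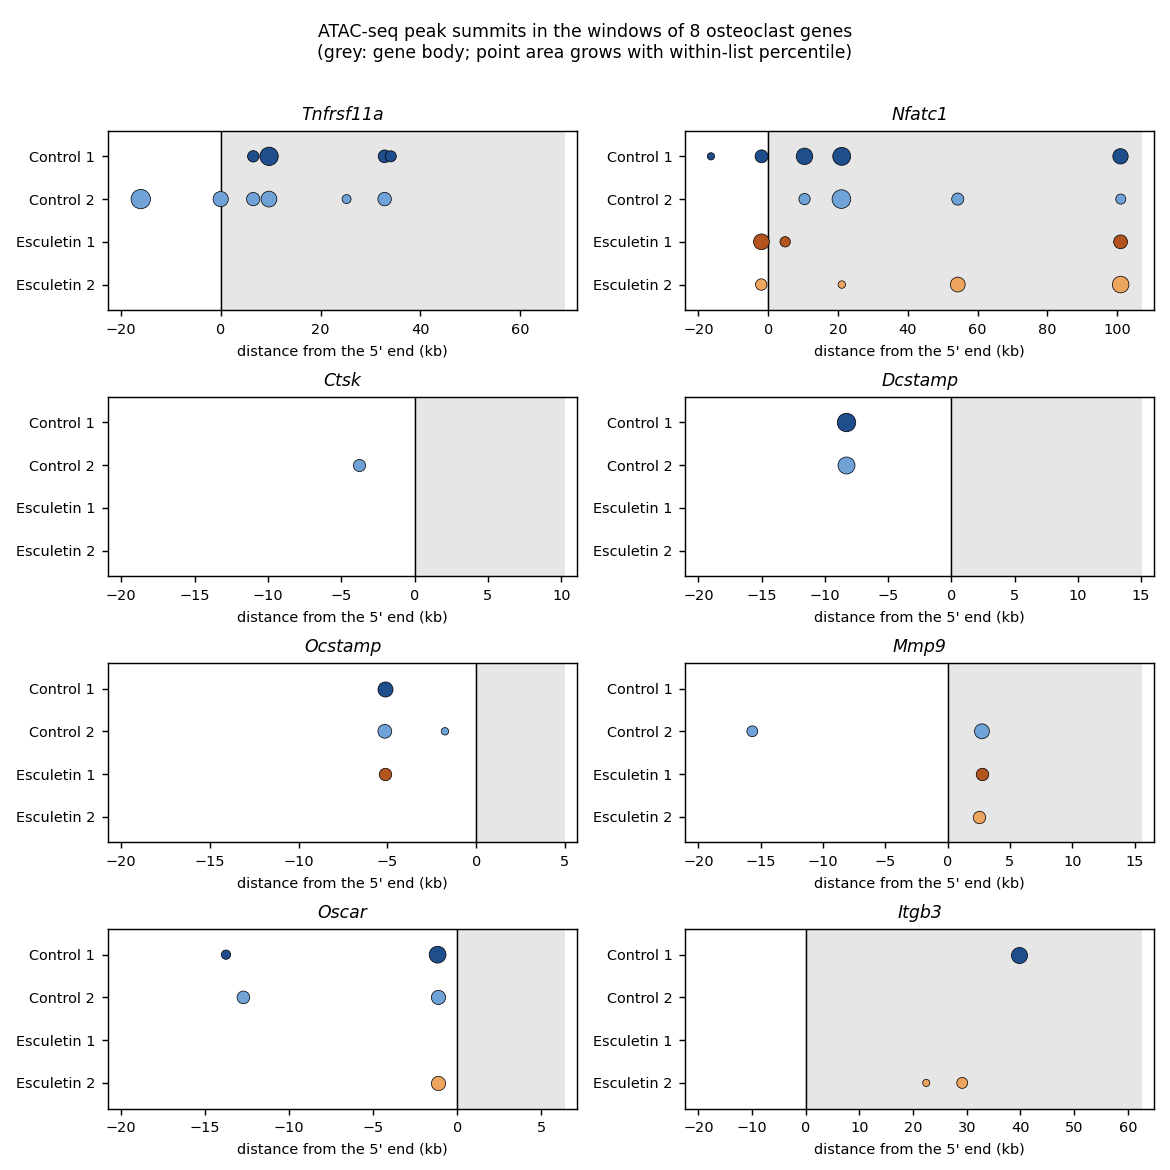
Summits of the ATAC-seq peaks at the 8 genes with a peak, by distance from the 5′ end (kb, negative before the gene) and library, with the gene body in grey and the point area growing with the within-list percentile. Tnfrsf11a has 4 and 6 summits in the controls and none in the esculetin libraries, whereas Nfatc1 has 5, 4, 3 and 4.

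The 45 peaks merged into 26 regions when peaks that overlapped by at least 1 bp were joined, and 26 of the peaks lay within a gene of the set and 19 before it. For each peak the strength is given as its percentile by −log10 p within its own list (0 weakest, 100 strongest, a scale that list length also moves) and as summit coverage over the genome-wide background coverage of the library. The lowest enrichment on this second scale at which a peak was still called at background was 2.61 in control 1, 3.19 in control 2, 3.02 in esculetin 1 and 3.17 in esculetin 2, but where the local background is raised, as at many of these regions, a stronger signal can also go uncalled. A missing call therefore sets no upper limit on the signal. The annotation used gives gene bounds, so exons and introns were not told apart.

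Of the 26 regions, 22 were distal, that is over 1 kb from any annotated start. Among the distal regions 5 (22.7%) were called in both controls and in no esculetin library, beside 16% of the 22782 distal regions of the genome. All 5 were at Tnfrsf11a (3), Nfatc1 (1) and Dcstamp (1). Only 1 was called in all 4 libraries, beside 4.45%, and 0 in both esculetin libraries and no control, beside 0.777%. Control 2 alone held 7 of the 26 regions and control 1 alone 4 (26.9% and 15.4%), beside 35.1% and 12.2% of all 36037 regions.

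Tnfrsf11a, the receptor RANK (chr1:105780673-105849444, plus strand), had the largest difference in window peaks between groups with the whole lists, −5, which was −1 at equal list length, the same size as the 1 of Nfatc1 in the opposite direction. Its window held 4 peaks in control 1, 6 in control 2 and 0 in both esculetin libraries (exact permutation test, two-sided, p = 0.333). Of the 644 coding genes with at least 4 window peaks in each control, 20 (3.11%) had none in either esculetin library.

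Within the gene, 3 regions were called in both controls. The strongest, at chr1:105790225-105790725 and 9.65 kb past the 5′ end, lay at percentiles 76.2 and 53.7 with enrichments of 6.76 and 7.84. At this region the local background was 8.38 and 5.92, above the genome-wide 6.51 and 4.08 of these libraries. The region 6.48 kb past the 5′ end lay at percentiles 23.2 and 35.3 with enrichments of 4.46 and 6.86, and the one at 32.8 kb at percentiles 31.6 and 36.5 with enrichments of 4.15 and 5.64. The remaining 4 regions of the window were each called in 1 control. The promoter peak of control 2, at chr1:105780473-105780786 with its summit 44 bp before the 5′ end, covered the CpG-rich sequence printed above at percentile 49.1, coverage 27 and enrichment 6.62. Control 1, the library with the highest background coverage, had no call there. The strongest peak of the window, at percentile 86.0 and enrichment 10.3, was also in control 2 alone and lay 16.1 kb before Tnfrsf11a at the annotated start of Gm10193. Weaker peaks lay 25.2 kb into the gene in control 2 (percentile 10.6) and 34.1 kb into it in control 1 (percentile 21.3).

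Nfatc1 is the master transcription factor of the program (chr18:80606205-80713071, minus strand). It was the only gene of the set with a window peak in all 4 libraries, 1 of 10 beside 37.4% of coding genes. Its window held 5, 4, 3 and 4 peaks in control 1, control 2, esculetin 1 and esculetin 2 (exact permutation test, two-sided, p = 0.667), and the groups overlapped. A region 101 kb past the 5′ end, towards the 3′ end of the gene (chr18:80611768-80612279), was the only region of the set called in every library. It lay at percentiles 50.1 and 16.0 in the controls and 38.7 and 60.8 in the esculetin libraries, with enrichments of 5.07, 5.15, 5.64 and 9.27. The mean percentile was 16.7 points higher with esculetin, whereas over the 1014 distal regions called in all libraries the median difference was −4.26 points. The percentiles overlapped between groups, since esculetin 1 lay between the controls. For this region the difference was −0.35 points without control 2, 5.61 without esculetin 2, 27.7 without esculetin 1 and 33.7 without control 1, so each library moved it by over 1.5 times. By the percentile of the fold it was 8.17 points.

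The other regions of Nfatc1 followed no single pattern. A region 1.92 kb before the 5′ end was called in control 1, esculetin 1 and esculetin 2 at percentiles 32.7, 53.7 and 23.4 and enrichments of 4.76, 7.05 and 6.10. It was thus present in both treated libraries and in 1 control. A region 21.1 kb into the gene was strong in both controls, at percentiles 72.1 and 78.7 and enrichments of 6.45 and 10.3, weak in esculetin 2, at percentile 4.35 and enrichment 4.39, and not called in esculetin 1. A region at 10.4 kb was called in the controls alone (percentiles 59.4 and 22.5, enrichments of 6.15 and 6.37). A region at 54.3 kb was called in the second library of each group, at percentiles 27.4 and 46.2 and enrichments of 6.37 and 6.83. Single calls lay 16.4 kb before the gene in control 1 (percentile 3.47) and 4.87 kb into it in esculetin 1 (percentile 17.5).

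**Figure D3:**
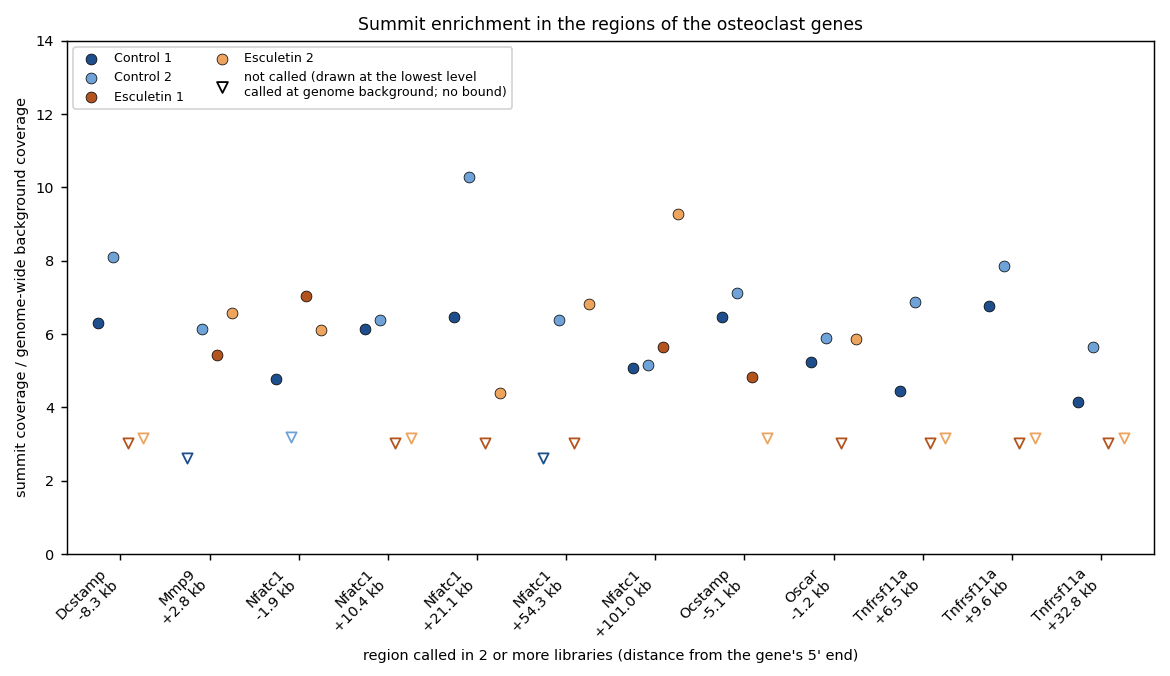
Summit coverage over genome-wide background coverage in the 12 regions called in at least 2 libraries, named by gene and distance from its 5′ end. Filled points are calls and open triangles mark, for a library without a call, its lowest level called at the genome-wide background, which is no upper bound. The 3 Tnfrsf11a regions and those at −8.3 kb of Dcstamp and +10.4 kb of Nfatc1 have calls in both controls and none with esculetin.

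The genes that encode the resorbing enzymes had few or no peaks. Ctsk, cathepsin K, the main collagen-degrading protease of osteoclasts (chr3:95499210-95509387, plus strand), had 1 peak in control 2 and 0 in the other libraries. It lay 3.79 kb before the gene at percentile 27.8 and enrichment 5.39. Acp5, the tartrate-resistant acid phosphatase used to stain osteoclasts (chr9:22126727-22135746, minus strand), had no window peak in any library. Mmp9, a gelatinase also made by macrophages (chr2:164940326-164955850, plus strand), had 0, 2, 1 and 1 peaks. The peak that esculetin 1 and esculetin 2 shared with control 2 lay 2.75 kb into the gene at percentiles of 46.3 in control 2, 29.7 in esculetin 1 and 29.5 in esculetin 2, with enrichments of 6.13, 5.44 and 6.59. Control 1 had no call there. A further peak of control 2 lay 15.7 kb before Mmp9 at enrichment 4.90. The groups overlapped at Ctsk and Mmp9 (exact permutation test, two-sided, p = 1 for each).

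Dcstamp and Ocstamp encode the membrane proteins needed for the fusion of precursors into multinucleate cells. Dcstamp (chr15:39745930-39760938, plus strand) had 1 peak in each control and 0 in each esculetin library (exact permutation test, two-sided, p = 0.333). Both control peaks formed a region 8.29 kb before the gene, at chr15:39737457-39737998, with percentiles of 77.3 and 63.6, summit coverages of 41 and 33 and enrichments of 6.30 and 8.09. Among the 727 distal regions at least as high in percentile in both controls, 183 (25.2%) were called in no esculetin library, and among all 5709 distal regions called in both controls 63.8% were. Ocstamp (chr2:165395450-165400394, minus strand) had 1, 2, 1 and 0 peaks (exact permutation test, two-sided, p = 0.667). Its region 5.15 kb before the gene was called in control 1, control 2 and esculetin 1 at percentiles 47.9, 38.9 and 29.7 with enrichments of 6.45, 7.11 and 4.83, and control 2 had a weak peak 1.76 kb before the gene at percentile 4.15. Tnfrsf11a and Dcstamp were the genes with a window peak in both controls and in no esculetin library, 2 of 10 beside 6.46% of coding genes. At equal list length, described further on, this held for Tnfrsf11a and not for Dcstamp.

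Oscar, a receptor for collagen that gives costimulatory signals through FcRγ (chr7:3609813-3616157, minus strand), had 2, 2, 0 and 1 window peaks (exact permutation test, two-sided, p = 0.333). None was at the Oscar start printed above. The region called in control 1, control 2 and esculetin 2 lay 1.17 kb before the gene at the promoter of Ndufa3, a subunit of respiratory complex I, with percentiles of 62.4, 41.6 and 42.2 and enrichments of 5.22, 5.88 and 5.85. A peak of control 1 at percentile 12.1 lay 13.8 kb before Oscar at the shared promoter of Tfpt and Prpf31. The peak of control 2 at percentile 31.1, 12.7 kb before the gene, lay 1046 bp from the start of Tfpt, so every window peak of Oscar lay at or beside the promoter of another gene.

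Itgb3 and Calcr are genes of the mature osteoclast. Itgb3, the beta3 chain of the integrin that fixes the cell to bone (chr11:104608000-104670476, plus strand), had 1, 0, 0 and 2 peaks (exact permutation test, two-sided, p = 1), each in a different region within the gene. The peak of control 1 lay 39.6 kb past the 5′ end at percentile 55.8, and those of esculetin 2 lay at 22.5 and 29.2 kb at percentiles 2.94 and 20.7. Calcr, the calcitonin receptor (chr6:3685678-3764713, minus strand), had no peak in its window of 99.036 kb in any library. Acp5 and Calcr were thus the 2 genes without any window peak, beside 31.9% of coding genes.

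The difference in window peaks did not remain when the lists were brought to equal length. With the 8581 strongest peaks of each library, the number that esculetin 1 had on the autosomes, X and Y, the 10 windows held 5 peaks in control 1, 2 in control 2, 5 in esculetin 1 and 3 in esculetin 2. At this length 4, 2, 3 and 2 of the genes had a window peak, beside 39.1%, 33.7%, 41% and 42.7% of coding genes. Of the 14 and 18 window peaks of the controls, 5 and 2 were among these, as were 3 of the 8 of esculetin 2, while the list of esculetin 1 was kept whole. Tnfrsf11a then had 1, 1, 0 and 0 peaks, and its control peaks lay in different regions, 9.65 kb into the gene in control 1 and at the start of Gm10193 in control 2. Dcstamp had 1, 0, 0 and 0 and Oscar 1, 0, 0 and 1, so their groups overlapped. Nfatc1 had 2, 1, 3 and 2, and Ocstamp and Mmp9 1 each, in esculetin 1. Thus 1 of the 10 genes kept more peaks in both controls, beside 2.36% of coding genes, and the reverse was seen at 0, beside 6.07%. A window peak in both controls and no esculetin library was left at Tnfrsf11a alone, beside 1.34% of coding genes. None of the 5 regions called in both controls only remained in both, and the 1 region with that pattern at equal length was the one 21.1 kb into Nfatc1, which the whole list of esculetin 2 also held.

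**Figure D4:**
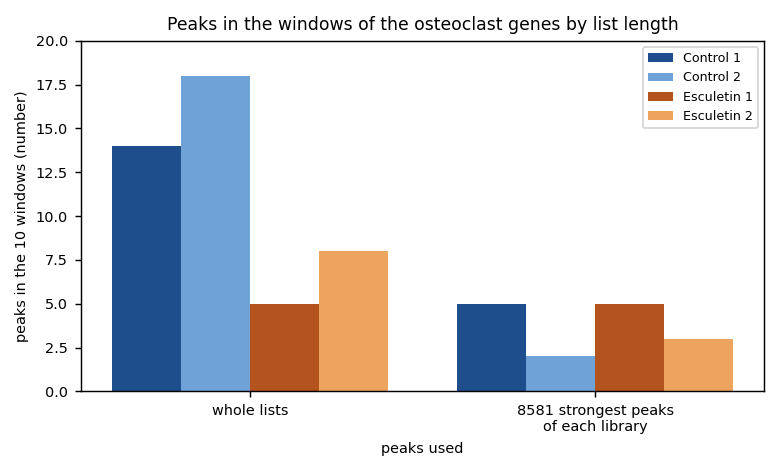
Number of peaks in the windows of the 10 osteoclast genes in each library with the whole lists (14, 18, 5 and 8) and with the 8581 strongest peaks of each library (5, 2, 5 and 3). The groups separate with whole lists and overlap at equal length.

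Further genes of osteoclast signaling, transcription, resorption and fusion had many promoter peaks. Of these 45 genes, 27, 29, 20 and 31 had a promoter peak in control 1, control 2, esculetin 1 and esculetin 2 (60%, 64.4%, 44.4% and 68.9%, beside 40.7%, 42.1%, 30.1% and 37.9% of coding genes), and 15 had one in all 4 libraries, beside 26.9% of coding genes. A window peak was found at 37, 41, 27 and 35 of them (82.2%, 91.1%, 60% and 77.8%, beside 57%, 62.3%, 41% and 51% of coding genes). In both controls and no esculetin library it was found at 5 of the 45, Csf1, Csf1r, Trem2, Src and Siglec15, beside 6.46% of coding genes. Of these, Src and Siglec15 were chosen for naming after their values were seen. The counts for these 45 genes, here and below, are with the whole lists and were not repeated at equal list length. Promoter peaks in both controls and no esculetin library were found at 2 of the 45 genes, Csf1 and Trem2, beside 3.75% of coding genes. Csf1, the growth factor, lay at percentiles 11.4 and 7.54, and Trem2, a receptor that signals through DAP12, at 60.4 and 7.49. The reverse was found at 1 gene, Jdp2, an AP-1 family factor of osteoclast differentiation, at percentiles 38.4 and 32.2 in the esculetin libraries, beside 0.42% of coding genes.

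The counts by group are read against the same shares of coding genes. Of the 4 genes of the ligand, decoy receptor and CSF1 axis, 1, 1, 0 and 0 had a promoter peak. Tnfsf11, the RANK ligand, and Tnfrsf11b, its decoy receptor osteoprotegerin, had no window peak in any library, and Csf1r, the CSF1 receptor, had 3 window peaks in each control and 0 in each esculetin library without a promoter peak. Of the 13 adaptors and kinases, 10, 10, 4 and 9 had a promoter peak. Traf6, the adaptor of RANK, was called in control 1, control 2 and esculetin 2 at percentiles 81.2, 49.9 and 40.7. Of the 13 transcription factors, 9, 11, 11 and 13 had a promoter peak. Fos, an AP-1 subunit required for the lineage, was called in all libraries at percentiles 13.7, 18.8, 40.0 and 73.7. Mitf, a partner of PU.1 at osteoclast genes, was also called in all, at percentiles 73.1, 53.5, 26.3 and 85.1, while its window held 7, 6, 1 and 1 peaks.

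Of the 3 repressors of the program, 1 had a promoter peak in each library. Irf8 was called in control 1, control 2 and esculetin 2 at percentiles 38.3, 25.6 and 24.3, and Bcl6 in esculetin 1 at percentile 5.65. Of the 12 further genes of resorption and fusion, 6, 6, 4 and 8 had a promoter peak. Atp6v0d2, a subunit of the proton pump used by osteoclasts, had no promoter peak but 3, 2, 0 and 1 window peaks. Tcirg1, another pump subunit, had a promoter peak in control 2 and esculetin 2 at percentiles 52.2 and 21.9, and Clcn7, the chloride transporter that works with the pump, in control 1 at percentile 26.6.

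**Figure D5:**
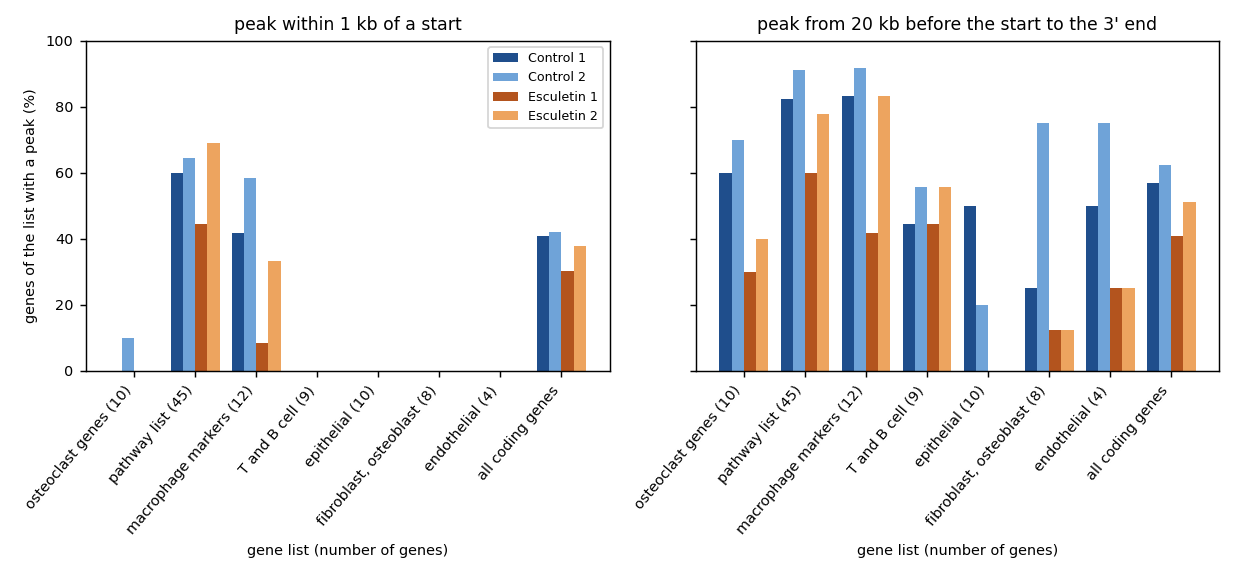
Share of genes (%) with a peak within 1 kb of a start (left) and anywhere in the window (right) in each library, for the 10 osteoclast genes, the 45 pathway genes, the marker lists and all coding genes. Promoter calls are at 0, 10, 0 and 0% of the osteoclast genes and at 60, 64.4, 44.4 and 68.9% of the pathway genes, while no marker list of another cell type has any.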

How the data were processed

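ATAC-seq peak lists of 4 RAW264.7 libraries (2 control, 2 esculetin) were used, grouped by the treatment in the labels. Per the methods and processing notes of the study, the authors trimmed reads with Trim Galore, aligned them to mm10 with Bowtie2, removed duplicate and multiply mapped reads, and called peaks in each library with MACS2, whose options are not given in the sources used here. The deposited lists hold a score, the fold enrichment (a linear ratio), a −log10 p and a −log10 q for every peak, all set by the authors' peak caller and dependent on depth. They hold no read counts, so no count model was run. The lowest −log10 q was 1.35 to 1.41 and the shortest peak 200 bp, and regions below the authors' limit cannot be seen.

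Gene bounds came from RefSeq (GRCm38.p6) and strands from the RefSeq promoter table or, for 18192 genes, from GENCODE by symbol and chromosome. The percentile by −log10 p was taken within each list. Summit coverage and background were solved from the fold and −log10 p, which gave a solution for 100% of peaks with −log10 p under 60. The procedure returned the true values for 100.0% of 2000 peaks simulated with the same formulas. This checks the calculation and not whether the deposited values follow those formulas. Peaks on the autosomes, X and Y were used, and overlapping ones were merged into 36037 regions. A peak count of a single gene was tested with a two-sided exact permutation test of the group labels, with 6 arrangements. Every osteoclast gene was named. Pathway genes were named where both libraries of 1 group and none of the other had a promoter peak, as were 12 genes regardless of values (such as Traf6, Fos and Mitf), and markers of other cell types where a window peak was present. Some genes that this rule names are not reported here. Members, lists and motifs were chosen with earlier results of these data known. Calculations used SciPy 1.17.1 and NumPy 2.4.6 with pandas 2.3.3 under Python 3.11.15, and plots matplotlib 3.10.9.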

Additional observations from a re-analysis of the deposited data

How the results depend on the processing

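With 2 libraries per group and peak lists without read counts, a missing call does not measure absence of signal. The esculetin minus control difference in window peaks (−9.5 with whole lists) was −15 with windows from 50 kb before the gene and 0.5, the opposite sign, with equal numbers of strongest peaks. At equal numbers the difference in genes with a window peak was −0.5 in place of −3, 1 region, none of the former 5, was called in both controls only, and 0 regions were called in all libraries. The 50 kb windows held 5 regions called in all libraries. Leaving out each library in turn gave 6 to 12 regions called in the controls only, 2 to 3 called in all remaining libraries and a percentile difference from −9.77 to 8.49, which was negative without esculetin 1 (−9.77) and without esculetin 2 (−4.07), where more regions enter. The window peak difference stayed between −11.5 and −7.5. These counts are of fewer libraries, so a region needs fewer calls to enter. Of 55 recomputed values 11 moved, 3 changed sign and 41 moved by no more than 1 SD of the replicates (1.5 times for region counts). Those 41 include the promoter difference, which went from −0.5 to 0 at equal numbers and without control 2, and a percentile difference of 2.76 without control 2. The SD for the percentile difference came from the Nfatc1 region alone, whose controls lay far apart at 50.1 and 16.0. Some of the 41 could not move, such as the replicate block, which repeats the same difference. The limit of −log10 q at least 2 left every window count unchanged. With the replicate block the difference was again −9.5, with a smallest possible p of 0.5. The replicate differences of both groups were not correlated (r = −0.00114 over 6181 regions), and the peak names within the esculetin lists carry other replicate marks than the labels, so the numbers only name the samples.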
